A study of Mus musculus with 4 samples.

Results

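Kinesins are motor proteins that walk along microtubules and carry organelles, vesicles, RNA and signalling proteins through the cell, or that shape microtubules themselves. The genes described here are the motor subunits (Kif and Kifc symbols) and the kinesin light chains (Klc symbols), taken by symbol from a table of gene levels in sorted neuron nuclei of the mouse. There were 46 such genes among 55487 listed, and 37 of them reached the level needed for testing, which was 1 TPM or more in 2 or more of the 4 libraries. TPM is a transcript level scaled by transcript length and to the same total in each library, so levels of different genes can be set side by side. The libraries came from wild-type adult mouse brain without the olfactory bulb. Nuclei of excitatory neurons (2 libraries) and of inhibitory neurons (2 libraries) were collected by fluorescence-activated sorting, and all 4 libraries carry the same batch label. No other allele, treatment or time point is given for either group, and the sources used here give neither the sort markers nor the animals behind each library. The labels do not tie the 2 libraries of a group to different animals. The p-values therefore reflect the spread among these samples alone, and that spread may be technical. Sequencing depth is unknown, since it is divided out of TPM. The columns summed to between 999833 and 999891 TPM, with 32207 to 32836 genes above 0.

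In neurons, most kinesins move toward the plus ends of microtubules, which point outward in axons, and so carry cargo away from the cell body. The kinesin-1, kinesin-2 and kinesin-3 families do most of this long-range transport, kinesin-4 and kinesin-13 proteins act on microtubule ends, and members of the kinesin-14 family move toward minus ends. Another set of kinesins builds and divides the mitotic spindle and is best known from dividing cells. Because RNA was taken from nuclei, the values cover nuclear transcripts, and transcripts already exported to the cytoplasm were not measured.

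Most tested kinesin genes were not called different between excitatory and inhibitory nuclei, and the same held for most of all genes tested. Kif26b, an atypical kinesin of the kinesin-11 family, and Klc4, a kinesin-1 light chain, were the members that passed the test, and both were higher in inhibitory nuclei. Of the 37 tested kinesin genes, 2 (5.41%) were called by limma at a Benjamini-Hochberg adjusted p under 0.05, against 12.0% of all 26055 genes tested. By direction, 2 of 37 kinesin genes were higher in inhibitory nuclei (background 6.62%) and 0 of 37 were higher in excitatory nuclei (background 5.43%). At an unadjusted p under 0.05, limma gave 4 kinesin genes on the excitatory side and 5 on the inhibitory side, a share of 24.3% against 27.8% of all genes. The median absolute log2 fold change was 0.16 over the tested kinesin genes and 0.30 over all genes tested (0.25 over protein-coding genes), and the median signed values were 0.027 and -0.073. These are descriptions of the list, and the share of calls lies below the background without a test of that difference.

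The sequences around the start sites of these 2 genes are shown with those of relatives in the same groups, Kif26a and Klc1, which did not pass the test. Each runs from 250 bases before to 50 bases after the annotated start on the strand of the gene, from RefSeq on build GRCm38.p6. Kif26b lies at chr1:178528875-178529174 (plus strand), Kif26a at chr12:112145958-112146257 (plus strand), Klc4 at chr17:46646031-46646330 (minus strand) and Klc1 at chr12:111758618-111758917 (plus strand). Capitals mark matches on either strand to 6 short motifs named below.
Kif26b: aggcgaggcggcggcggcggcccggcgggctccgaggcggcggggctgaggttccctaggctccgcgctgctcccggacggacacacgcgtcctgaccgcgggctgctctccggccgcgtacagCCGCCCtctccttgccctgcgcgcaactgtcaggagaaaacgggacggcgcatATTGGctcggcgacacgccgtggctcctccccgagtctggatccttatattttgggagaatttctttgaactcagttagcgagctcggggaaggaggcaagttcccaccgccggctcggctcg
Kif26a: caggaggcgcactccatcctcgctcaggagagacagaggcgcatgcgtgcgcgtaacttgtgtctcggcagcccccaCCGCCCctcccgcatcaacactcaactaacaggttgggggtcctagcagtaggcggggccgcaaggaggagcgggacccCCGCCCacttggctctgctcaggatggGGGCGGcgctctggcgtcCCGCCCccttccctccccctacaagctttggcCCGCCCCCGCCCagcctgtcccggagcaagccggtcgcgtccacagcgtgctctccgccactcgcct
Klc4: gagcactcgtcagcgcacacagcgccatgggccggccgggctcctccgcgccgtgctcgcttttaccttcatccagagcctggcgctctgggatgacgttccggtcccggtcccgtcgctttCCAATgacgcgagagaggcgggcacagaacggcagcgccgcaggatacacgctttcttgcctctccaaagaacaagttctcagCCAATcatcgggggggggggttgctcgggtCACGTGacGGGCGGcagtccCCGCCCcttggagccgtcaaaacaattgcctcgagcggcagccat
Klc1: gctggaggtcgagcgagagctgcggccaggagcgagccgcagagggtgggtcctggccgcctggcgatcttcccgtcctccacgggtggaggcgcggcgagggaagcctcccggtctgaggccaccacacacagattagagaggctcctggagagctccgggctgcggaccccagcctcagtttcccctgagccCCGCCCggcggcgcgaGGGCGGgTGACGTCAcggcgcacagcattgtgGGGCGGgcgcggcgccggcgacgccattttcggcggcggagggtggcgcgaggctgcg
The motifs searched were the EGR motif GCGTGGGCG, the GC box GGGCGG, the E-box CACGTG, the CCAAT box, the cyclic AMP response element TGACGTCA and the TATA box TATAAA, with their reverse complements. The Kif26b window held 1 GC box and 1 CCAAT box, and the Kif26a window held 6 GC boxes. Klc4 had 2 GC boxes, 1 E-box and 2 CCAAT boxes, while Klc1 had 3 GC boxes and 1 cyclic AMP response element. No match overlapped another in these windows. All 4 windows were rich in G and C, from 65.0% (Klc4) to 73.7% (Klc1). Windows were found for 36 of the 46 kinesin genes, 40 windows in all. The GC box was in 65.0% of the kinesin windows and in 35.7% of all 32851 windows, and the CCAAT box in 47.5% and 37.4%. The E-box was in 5.0% against 7.15%, the response element in 10% (4 of 40) against 1.79% and the TATA box in 12.5% against 13.6%. The comparison takes all windows, without matching for gene type or G and C content. The EGR motif, that of the factor EGR1 in the study's title, was in 0 of 40 kinesin windows and in 0.612% of all windows. A match is a description of the letters, and the windows say nothing about binding.

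Kif26b encodes a kinesin with an atypical motor domain that is known for roles in cell adhesion and Wnt signalling. It stood at 14.7 and 13.9 TPM in the excitatory libraries and at 30.3 and 32.2 TPM in the inhibitory ones. Both inhibitory libraries lay above both excitatory ones, with little spread inside each group. The level was 2.18-fold higher in inhibitory nuclei (14.3 ± 0.573 against 31.3 ± 1.35 TPM, SD, n = 2 each). Its log2 fold change, excitatory minus inhibitory on the log2(TPM + 1) scale, was -1.07 ± 0.14 (SE; 95% interval -1.43 to -0.72; limma adjusted p = 0.00886). The gene spans 410076 bases on chromosome 1 (178529125 to 178939200, plus strand, mm10), the longest span among the 46 kinesin genes. An antisense gene, Gm16564, shares 909 exonic bases with it and stood at 2.99 and 2.57 TPM in excitatory and at 7.13 and 6.5 TPM in inhibitory libraries. The sources used here do not say whether reads were counted by strand, so reads of Kif26b and Gm16564 cannot be told apart in their shared stretch.

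Klc4 encodes a light chain, the part of kinesin-1 that binds cargo and holds the motor inactive when unloaded. Klc4 stood at 13.2 and 16 TPM in the excitatory libraries and at 25.3 and 32.7 TPM in the inhibitory ones. The groups did not overlap, and the inhibitory libraries differed more from each other than the excitatory ones did. Its mean was 1.98-fold higher in inhibitory nuclei, a log2 fold change of -0.94 ± 0.19 (95% interval -1.40 to -0.47; limma adjusted p = 0.0310). This call was lost without the filter on low values (adjusted p = 0.0786) and with no trend in the variance prior (adjusted p = 0.0679). With any 1 library left out and the same genes tested, the smallest adjusted p over all genes was between 0.0545 and 0.0664, so no gene was called. Kif26b then had an adjusted p between 0.0798 and 0.10, and Klc4 between 0.109 and 0.184, with the same direction each time.

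In bulk libraries, fewer cells of a type and less RNA per cell cannot be told apart, and marker genes moved with the groups. Slc17a7, the vesicular glutamate transporter, was at 365 and 367 TPM in excitatory and 60.2 and 52.2 TPM in inhibitory libraries. Gad1, which makes GABA, was at 45.0 and 38.1 against 226 and 207 TPM. Of the excitatory markers tested, 8 of 9 were higher in excitatory nuclei (5.43% of all genes) and 1, Slc17a6, was higher in inhibitory nuclei. Slc17a6 stood at 22.4 and 20.3 TPM in excitatory and 88.0 and 78.4 TPM in inhibitory libraries (limma adjusted p = 0.00176). All 8 tested inhibitory markers were higher in inhibitory nuclei. Markers of striatal (10 of 10), cerebellar (7 of 8) and thalamic neurons (5 of 6) were higher in inhibitory nuclei too (6.62% of all genes). The summed striatal markers stood between 374 and 387 TPM in excitatory libraries and between 1443 and 1480 TPM in inhibitory ones. The sums were 173 to 178 against 375 TPM for cerebellar and 80.4 to 93.0 against 226 to 308 TPM for thalamic markers. These moved in the direction of Kif26b and Klc4, and their part in either difference was not tested. Of the tested markers of other cell types, limma called 0 of 8 for astrocytes, 0 of 10 for the oligodendrocyte lineage and 0 of 7 for microglia. It called 0 of 4 for endothelial and mural cells (8 listed), 0 of 4 for dividing cells (10 listed) and 0 of 5 for ependymal cells (8 listed). Over all genes tested 12.0% were called, so 0 calls on lists this short do not show equal levels. At an unadjusted p under 0.05 there were 2 for astrocytes, 1 for the oligodendrocyte lineage and 1 for ependymal cells, against 27.8% of all genes. Summed levels in excitatory against inhibitory libraries were 65.2 to 77.4 against 43.4 to 55.8 TPM for astrocytes and 374 to 457 against 284 to 396 TPM for the oligodendrocyte lineage. Those of microglia were 42.5 to 43.3 against 46.3 to 54.5 TPM, of endothelial and mural cells 13 against 12.9 to 13 TPM, and of ependymal cells 10.4 to 13.5 against 10.9 to 11.2 TPM. No marker on any list was at 0 in all 4 libraries.

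**Figure D1:**
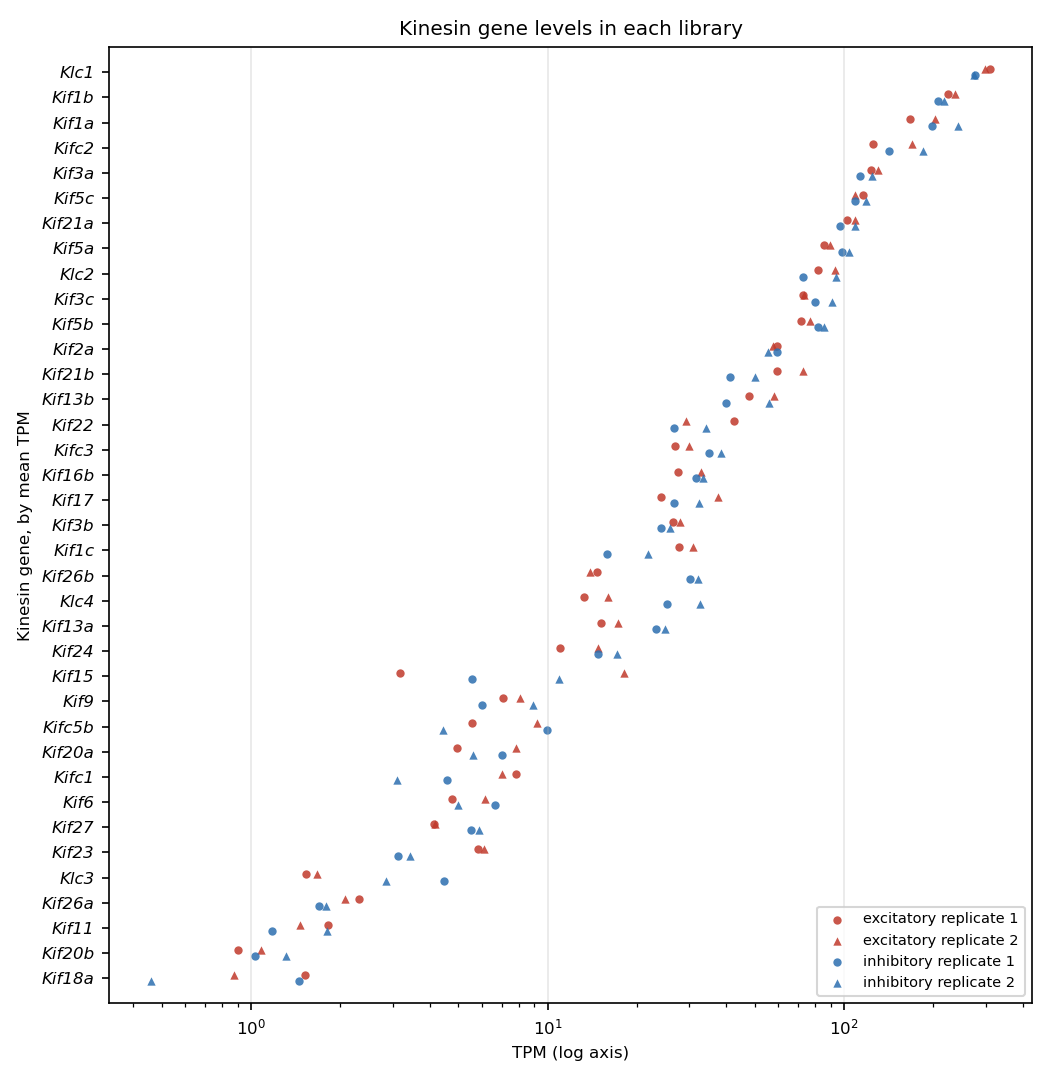
TPM of the 37 tested kinesin genes in each library on a log axis, ordered by their mean over the 4 libraries, with excitatory libraries in red, inhibitory in blue, circles for replicate 1 and triangles for replicate 2. Klc1 leads in every library, Kif26b and Klc4 have both blue points to the right of both red ones, and Kif15 spreads from 3.18 to 18.2 TPM.

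Together the 46 genes held 1929 and 2104 TPM in the excitatory and 1929 and 2158 TPM in the inhibitory libraries, 0.193% to 0.216% of all TPM. The groups overlapped in this sum (2016 ± 124 against 2043 ± 162 TPM). The tested kinesin genes had a median level of 26.1 TPM, against 23.0 TPM over protein-coding and 12.2 TPM over all genes tested. Few genes made up most of the sum: the 10 genes with the highest mean held between 71.9% and 73.0% of it in each library. Of the 37, 14 had a mean of at least 50 TPM and 24 of at least 10 TPM. Across all 46 genes, mean log2(TPM + 1) in excitatory nuclei correlated with that in inhibitory nuclei at Pearson r = 0.99, over genes that share the same libraries and length scaling.

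The order of levels was headed by Klc1 in both groups. In excitatory nuclei Kif1b, Kif1a, Kifc2, Kif3a, Kif5c and Kif21a followed, and in inhibitory nuclei Kif1a, Kif1b, Kifc2, Kif3a, Kif5c and Kif21a. Klc1 stood apart from the next gene in both groups, its libraries lying above those of Kif1b (excitatory) and Kif1a (inhibitory). Among neighbours in the order with means of at least 1 TPM, the libraries overlapped in 22 of 35 pairs in excitatory and in 24 of 35 pairs in inhibitory nuclei. Kif1a and Kif1b were among the pairs that overlapped in inhibitory nuclei, so their exchange of rank there lies within the spread.

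Kinesin-1 pairs heavy chains (Kif5a, Kif5b and Kif5c), which hold the motor, with light chains (Klc1 to Klc4), and carries mitochondria, synaptic vesicle precursors and receptors. Kif5c, a neuronal heavy chain, was highest of the heavy chains at 116 and 109 TPM in excitatory and 109 and 119 TPM in inhibitory libraries. Its log2 fold change was -0.01 (95% interval -0.26 to 0.24), and the groups overlapped. Kif5a, the heavy chain mutated in a hereditary spastic paraplegia, stood at 85.8 and 89.8 against 98.2 and 104 TPM. Kif5b, the heavy chain found in most tissues, stood at 71.7 and 76.6 against 81.4 and 85.5 TPM. For both genes the inhibitory libraries lay above the excitatory ones, but by little: log2 fold changes were -0.20 (interval -0.44 to 0.043) and -0.17 (interval -0.42 to 0.081), neither called. Summed, the 3 heavy chains stood at 273 and 275 TPM in excitatory and 288 and 308 TPM in inhibitory libraries.

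Klc1, the main neuronal light chain, was the most abundant kinesin gene at 311 and 299 against 276 and 275 TPM. Both excitatory libraries were higher, and the difference was not called (log2 fold change 0.15, interval -0.080 to 0.37). Klc2, the next light chain in level, stood at 81.9 and 92.9 against 72.5 and 93.8 TPM with overlapping groups (0.08, interval -0.29 to 0.45). Klc3, a light chain best known from testis, was low, at 1.54 and 1.66 against 4.46 and 2.85 TPM. It was higher in both inhibitory libraries but not called (-0.82, interval -1.58 to -0.057, adjusted p = 0.154), and it shares 744 exonic bases with Ercc2 on the other strand. Within the light chains, Klc4 made up 3.25% and 3.90% of the summed TPM in excitatory and 6.68% and 8.09% in inhibitory libraries, while Klc1 had a mean share of 74.6% in excitatory and 70.5% in inhibitory libraries. The ratio of summed heavy chains to summed light chains, a value computed after the levels were seen, was 0.671 and 0.672 in the excitatory and 0.762 and 0.762 in the inhibitory libraries. The ratio is the same within each group to the second decimal and differs between them. With 2 libraries against 2, an exact two-sided permutation test of any such share or ratio cannot go below p = 0.33, so these are given as descriptions.

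**Figure D2:**
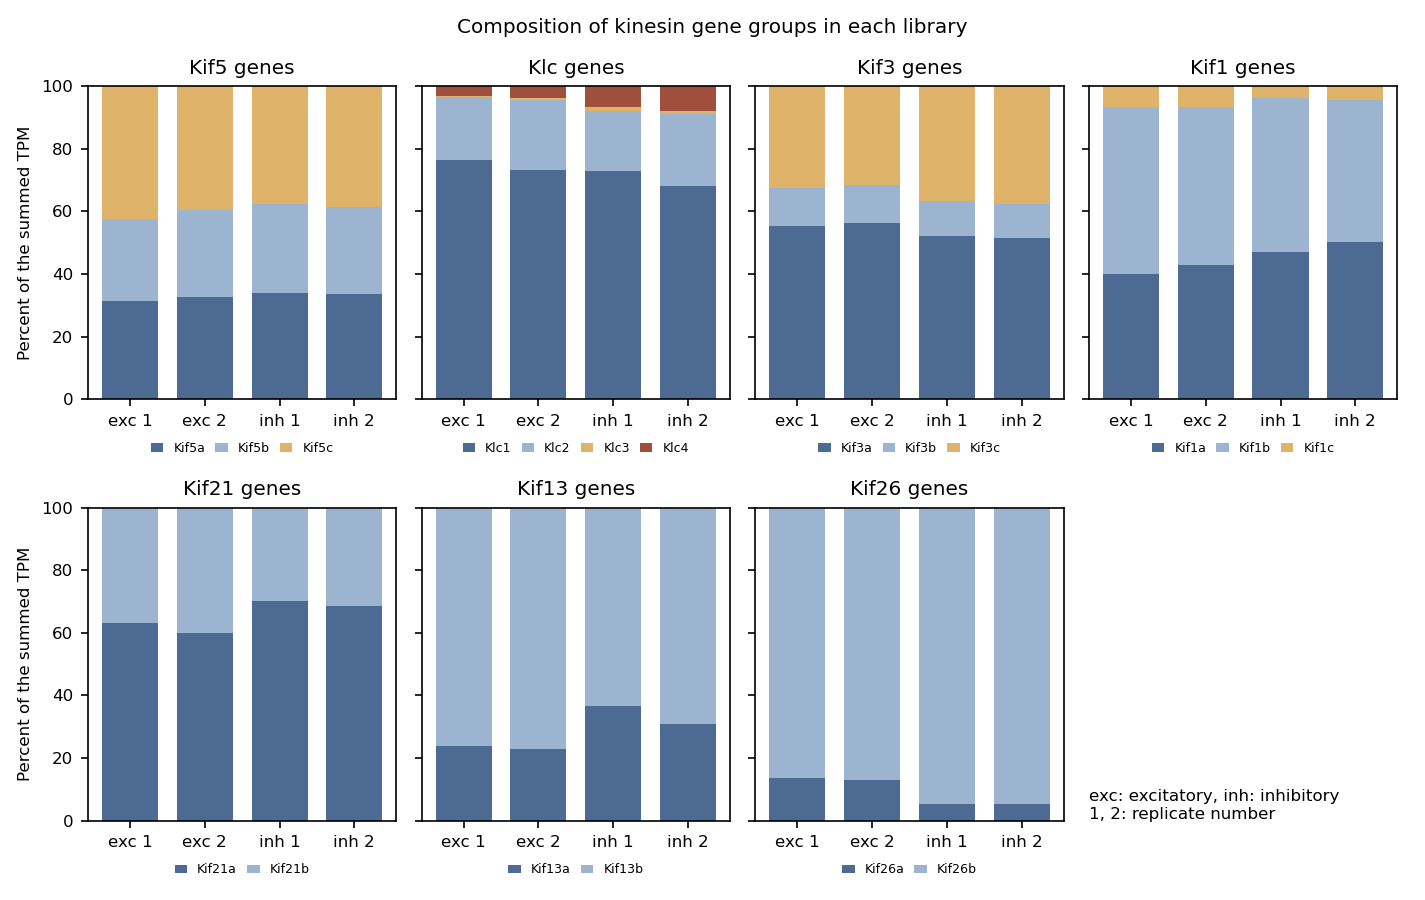
Percent of the summed TPM taken by each gene within 7 kinesin gene groups, with 1 bar per library. Kif13a, Kif1a, Kif3c and Klc4 take larger shares in both inhibitory libraries and Kif21b, Kif3a and Kif1c in both excitatory ones, while each group keeps the same leading gene except the Kif1 genes, where Kif1a (50.3%) passes Kif1b (45.2%) in inhibitory replicate 2.

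Kinesin-2 carries cargo in axons and in cilia: Kif3a pairs with Kif3b or Kif3c, and Kif17 works as a pair of like subunits and carries NMDA receptor vesicles in dendrites. Kif3a stood at 123 and 130 in excitatory and 113 and 124 TPM in inhibitory libraries, with overlap (log2 fold change 0.09, interval -0.16 to 0.34). Kif3b stood at 26.4 and 27.9 against 24.2 and 25.9 TPM, close but not overlapping (0.12, interval -0.21 to 0.44). Kif3c, the neuronal partner of Kif3a, went the other way, at 72.6 and 73.4 against 79.5 and 91.2 TPM (-0.22, interval -0.49 to 0.054). None of the 4 kinesin-2 genes was called (12.0% of all genes tested were), and 0 had an unadjusted p under 0.05 (27.8% of all genes). Kif3c took 32.7% and 31.7% of the summed Kif3 TPM in excitatory and 36.7% and 37.8% in inhibitory libraries, and these shares did not overlap. Kif3c shares 2617 exonic bases with the antisense gene 1110002L01Rik, which limits how its level can be read. Kif17 stood at 24.2 and 37.5 against 26.6 and 32.4 TPM, the excitatory libraries lying on both sides of the inhibitory ones. It overlaps Sh2d5 on the same strand (74 shared exonic bases).

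Kinesin-3 motors work over long distances, and Kif1a and Kif1b carry synaptic vesicle precursors and dense-core vesicles along axons. Kif1a stood at 167 and 202 TPM in excitatory and 198 and 242 TPM in inhibitory libraries, with overlap (log2 fold change -0.25, interval -0.61 to 0.11). Kif1b stood at 224 and 237 against 207 and 217 TPM, higher in both excitatory libraries by a small margin (0.12, interval -0.11 to 0.35). Kif1c, a relative that carries integrins and dense-core vesicles, stood at 27.8 and 31.0 against 15.9 and 21.8 TPM. Both excitatory libraries were above both inhibitory ones, a 1.56-fold difference that was not called (0.63 ± 0.19, interval 0.16 to 1.09, limma adjusted p = 0.0893). As a share of the Kif1 genes, Kif1c took 6.65% and 6.58% in excitatory and 3.78% and 4.54% in inhibitory libraries. Kif1a took 39.8% and 43.0% against 47.1% and 50.3%.

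Kif13a and Kif13b are kinesin-3 motors of endosomes and of membrane proteins. Kif13a stood at 15.2 and 17.2 TPM in excitatory and 23.2 and 24.9 TPM in inhibitory libraries. It was 1.49-fold higher in inhibitory nuclei without overlap and was not called (-0.55 ± 0.16, interval -0.93 to -0.16, limma adjusted p = 0.0784). Kif13b stood at 47.9 and 58.0 against 40.0 and 55.8 TPM, with overlap. Kif13a took 24.0% and 22.9% of their sum in excitatory and 36.7% and 30.9% in inhibitory libraries. Kif16b, a motor of early endosomes, stood at 27.4 and 32.9 against 31.7 and 33.5 TPM, also with overlap (-0.12, interval -0.47 to 0.24). The interval for Kif13a excludes 0 while its adjusted p does not pass, because the p-values were adjusted over all genes tested.

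Kinesin-4 members slow or stop microtubule growth, and Kif21a and Kif21b do so in axons and dendrites. Kif21b stood at 59.5 and 72.7 TPM in excitatory and 41.2 and 50.1 TPM in inhibitory libraries. Both excitatory libraries were higher, by 1.45-fold in the means, and the difference was not called (0.52 ± 0.15, interval 0.15 to 0.90, limma adjusted p = 0.0848). With median-of-ratios scaling of the libraries, Kif21b passed the test (adjusted p = 0.0380). Kif21a stood at 102 and 109 against 97.1 and 109 TPM, with overlap (0.03, interval -0.23 to 0.30). Kif21b took 36.8% and 40.1% of the sum with Kif21a in excitatory and 29.8% and 31.5% in inhibitory libraries. Kif27 (4.14 to 5.87 TPM) and Kif7 (0.323 to 1.02 TPM), which is a regulator of Hedgehog signalling at the cilium, were low, and Kif7 was not tested.

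Kinesin-13 proteins take microtubules apart at their ends rather than walk on them. Kif2a, the neuronal member that prunes axon branches, stood at 59.2 and 57.5 against 59.3 and 55.3 TPM. The 4 values of Kif2a overlap closely (log2 fold change 0.03, interval -0.23 to 0.29), though it shares 1229 exonic bases with Dimt1 on the other strand. Kif24, known from the control of cilium assembly, stood at 11.0 and 14.8 against 14.8 and 17.2 TPM (-0.30, interval -0.82 to 0.22). Kif2b and Kif2c, which act at the spindle, were listed at 0 in all 4 libraries.

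**Figure D3:**
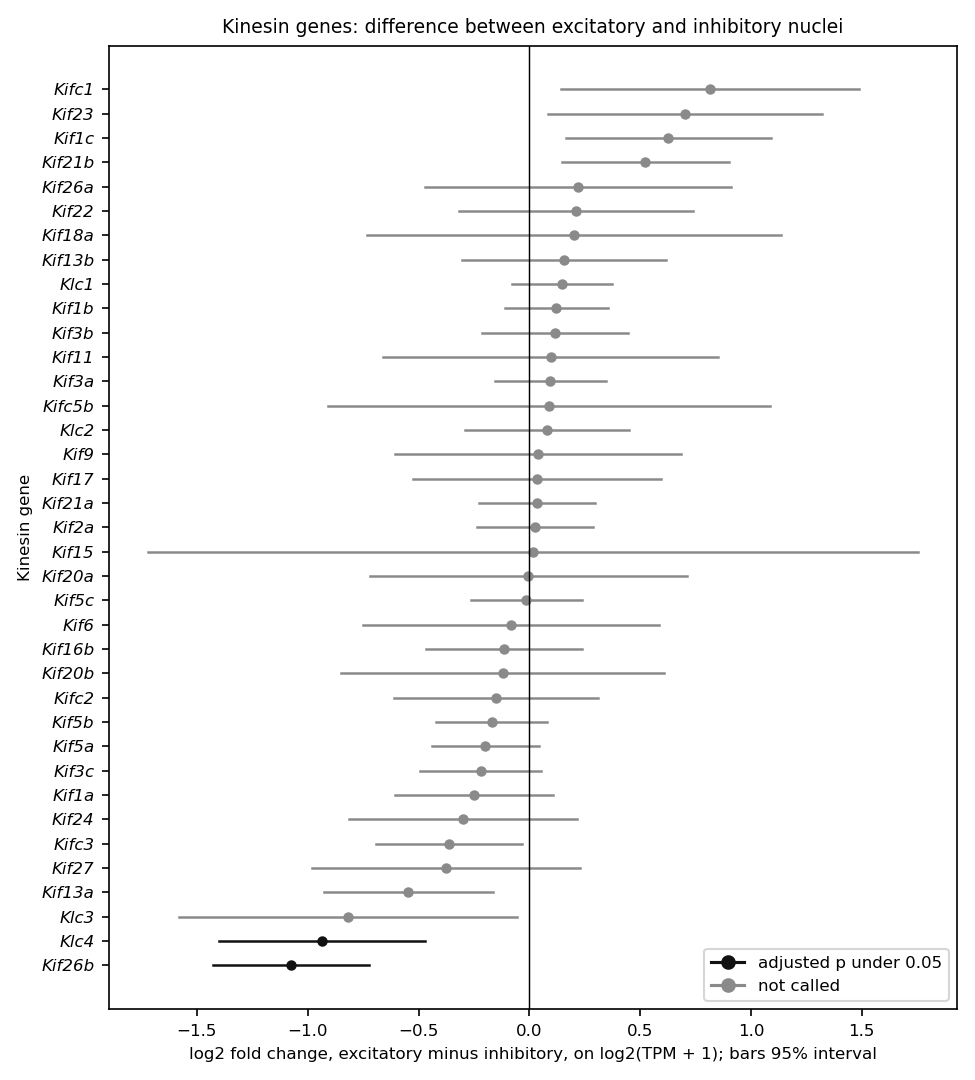
Log2 fold change of each tested kinesin gene (points) with its 95% interval (bars), excitatory minus inhibitory on log2(TPM + 1), ordered by size. Kif26b and Klc4 (black) passed the test, and the bars are widest for Kif15, from -1.72 to 1.76.

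Among the 14 genes with a mean of at least 50 TPM, 13 had an absolute log2 fold change under 0.3 and all 14 had a 95% interval within 1 log2 unit of 0. Over the 37 tested genes, 27 had an absolute log2 fold change under 0.3 and 28 had such an interval. The median absolute log2 fold change was 0.30 over all genes tested and 0.25 over protein-coding genes. Matching counts over other genes of like level were not made, so these counts are not a trait particular to kinesin genes. Some genes missed a count by the size of their difference, such as Kif26b (SE 0.14, interval -1.43 to -0.72). Others missed the interval count by a wide spread between libraries, such as Kif15 (SE 0.71, interval -1.72 to 1.76). A p that missed the threshold does not show equal levels. The groups did not overlap for 17 of the 37 kinesin genes (45.9%), 8 with the excitatory libraries on top and 9 with the inhibitory ones, against 56.2% of all genes tested. The kinesin genes are long, with a median span of 48.2 kb against 24.6 kb for protein-coding genes tested. Their log2 fold change ran weakly with span (Spearman rho = -0.27 over 37 genes), a description across genes that share the same libraries.

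**Figure D4:**
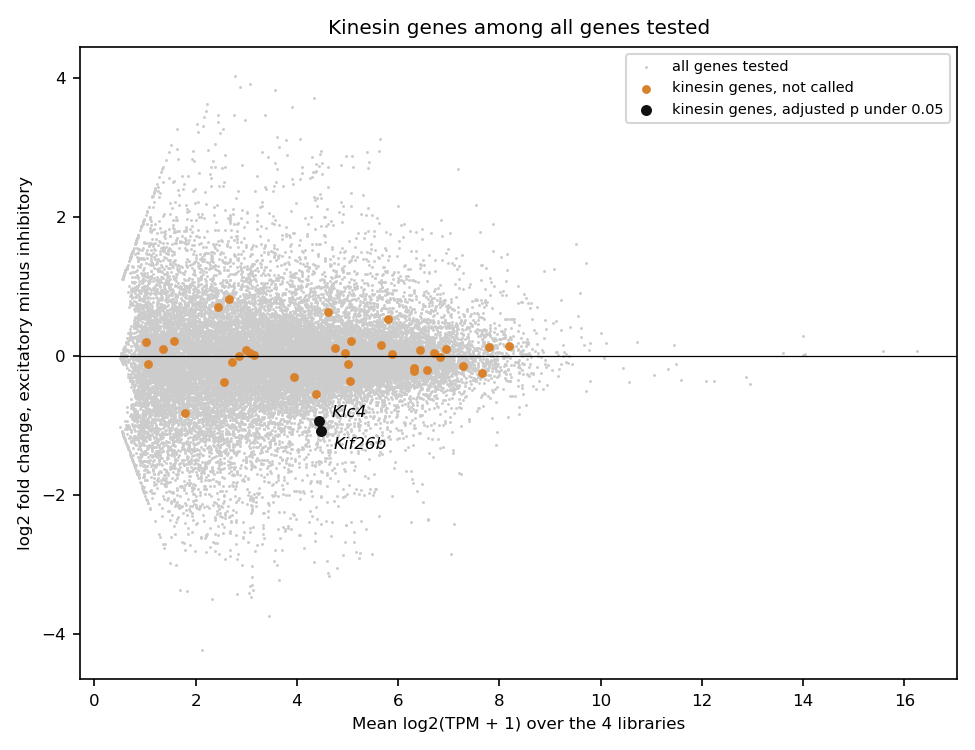
Log2 fold change against mean log2(TPM + 1) over the 4 libraries for all 26055 genes tested (grey), with the kinesin genes on top (orange; black where the adjusted p was under 0.05). The kinesin genes lie between -1.07 and 0.82, inside the range of the other genes.

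The minus-end motors of the kinesin-14 family were led by Kifc2, a motor known from neurons, at 125 and 170 TPM in excitatory and 142 and 185 TPM in inhibitory libraries. These ranges overlapped (-0.15, interval -0.61 to 0.31). Kifc3, a motor at cell junctions, stood at 26.8 and 30.1 against 35.1 and 38.5 TPM, without overlap and not called (-0.36, interval -0.69 to -0.033, adjusted p = 0.146). Kifc1, a spindle motor, stood at 7.85 and 7.04 against 4.59 and 3.10 TPM (adjusted p = 0.117), and its close copy Kifc5b between 4.43 and 9.92 TPM. Of the 100-base windows of Kifc1 transcripts, 17.0% occur unchanged in Kifc5b, so their levels are uncertain. The kinesin-14 genes are named here after their values were seen.

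The summed level of the spindle and cytokinesis kinesins was 74.7 and 81.2 TPM in excitatory and 61.2 and 66.5 TPM in inhibitory libraries. Of the 14 listed, 9 were tested and 0 were called by limma (background 12.0%). At an unadjusted p under 0.05 there were 2, Kifc1 and Kif23, both higher in excitatory nuclei (background 27.8%). Kif22, a chromosome-binding motor, was the highest of them at 42.4 and 29.2 against 26.8 and 34.3 TPM, with overlap. Kif23, which acts in cytokinesis, stood at 5.83 and 6.11 against 3.13 and 3.44 TPM (adjusted p = 0.136). Kif15, another motor that holds spindle poles apart, stood at 3.18 and 18.2 TPM in the excitatory libraries and 5.55 and 10.9 TPM in the inhibitory ones, and its log2 fold change had the largest SE of the tested kinesin genes (0.71). Kif20a, at 4.95 to 7.81 TPM, shares 1271 exonic bases with Cdc23 on the other strand, a gene at 79.7 to 91.5 TPM. Kif11, the motor that pushes spindle poles apart, stood at 1.17 to 1.82 TPM, and Kif18b was listed at 0 throughout. The 10 markers of dividing cells summed to between 15.3 and 21.0 TPM, led by Ccna2 at 8.08 to 10.8 TPM, while Cdk1 was at or under 0.269 TPM. The members of this paragraph were also singled out by their values.

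Kif26a, the relative of Kif26b, stood at 2.31 and 2.07 against 1.69 and 1.79 TPM. Kif26b took 86.4% and 87.1% of the sum of this pair in excitatory and 94.7% and 94.7% in inhibitory libraries. Kif6 (4.75 to 6.67 TPM) and Kif9 (6.02 to 8.94 TPM), known from motile cilia, overlapped between groups. Of the 9 genes not tested, Kif2b, Kif2c and Kif18b were listed at 0 in each library, and 6 were above 0 in at least 1 library (Kif4, Kif7, Kif12, Kif14, Kif19a and Kif28, none above 1.04 TPM).

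Adaptors that tie kinesins to cargo were listed from general knowledge. Of 37 tested, limma called 3 in the excitatory direction and 3 in the inhibitory direction and left 31 uncalled (background 5.43% and 6.62%), with a median log2 fold change of -0.065. The liprins bind Kif1a: Ppfia2 was higher in excitatory nuclei (128 and 127 against 74.1 and 74.3 TPM, limma adjusted p = 0.00674) and Ppfia4 in inhibitory nuclei (32.8 and 37.1 against 64.2 and 73.9 TPM, adjusted p = 0.00931). Grip1, which links AMPA receptors to Kif5, was higher in inhibitory nuclei at 41.0 and 40.1 against 82.6 and 108 TPM (adjusted p = 0.00701). Kifap3, the accessory subunit of Kif3a and Kif3b, stood at 84.0 and 84.2 against 85.3 and 89.1 TPM and was not called. Members of this list that were called therefore lay on both sides.

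The list for cytoplasmic dynein, which carries cargo the other way, and its activator dynactin does not hold every such gene. Of its 27 tested genes, 1 was higher in excitatory nuclei (background 5.43%) and 0 were higher in inhibitory nuclei (background 6.62%). At an unadjusted p under 0.05, limma gave 1 and 3, where 27.8% of all genes tested passed in either direction. That gene was Dynll1, a light chain, at 61.2 and 64.2 against 40.7 and 38.3 TPM (limma adjusted p = 0.0182, lost with no trend in the variance prior at 0.0706). Dync1h1, the heavy chain, stood at 114 and 136 against 119 and 137 TPM. Dynlt1c, a dynein light chain gene left off the list, was higher in inhibitory nuclei (log2 fold change -0.98, limma adjusted p = 0.0112). Its relative on the list, Dynlt1a, was not called (-0.36, limma adjusted p = 0.163), and sequence shared between them was not examined. Of 30 tested microtubule-associated proteins, 4 had higher levels in excitatory nuclei (background 5.43%) and 2 in inhibitory nuclei (background 6.62%). Stmn1, which binds free tubulin, was at 141 and 126 against 75 and 70.8 TPM (adjusted p = 0.00716). Dclk1, a doublecortin-like kinase, was at 519 and 573 against 325 and 348 TPM (adjusted p = 0.0136). Map7, which recruits kinesin-1 to microtubules, was at 217 and 211 against 154 and 154 TPM (adjusted p = 0.0262). The 2 on the inhibitory side, named after their values were seen, were Map4 at 92.4 and 85 against 128 and 124 TPM (adjusted p = 0.0290) and Dclk2 at 58.4 and 71.1 against 101 and 98.2 TPM (adjusted p = 0.0308). Of 21 tubulins and tubulin-modifying enzymes, 1 was higher in inhibitory nuclei and 0 in excitatory nuclei, again against 6.62% and 5.43% of all genes. At an unadjusted p under 0.05 there were 2 in each direction, against 27.8% of all genes tested in either direction. The called gene was Vash2, which removes the last tyrosine of tubulin, at 3.35 and 3.00 against 9.28 and 10.1 TPM (adjusted p = 0.0213). Without the filter on low values Dclk1 (0.0514), Map7 (0.0582) and Vash2 (0.0585) had adjusted p-values above the threshold. With no trend in the variance prior, Dclk1 (0.0690) and Map7 (0.13) did too.

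**Figure D5:**
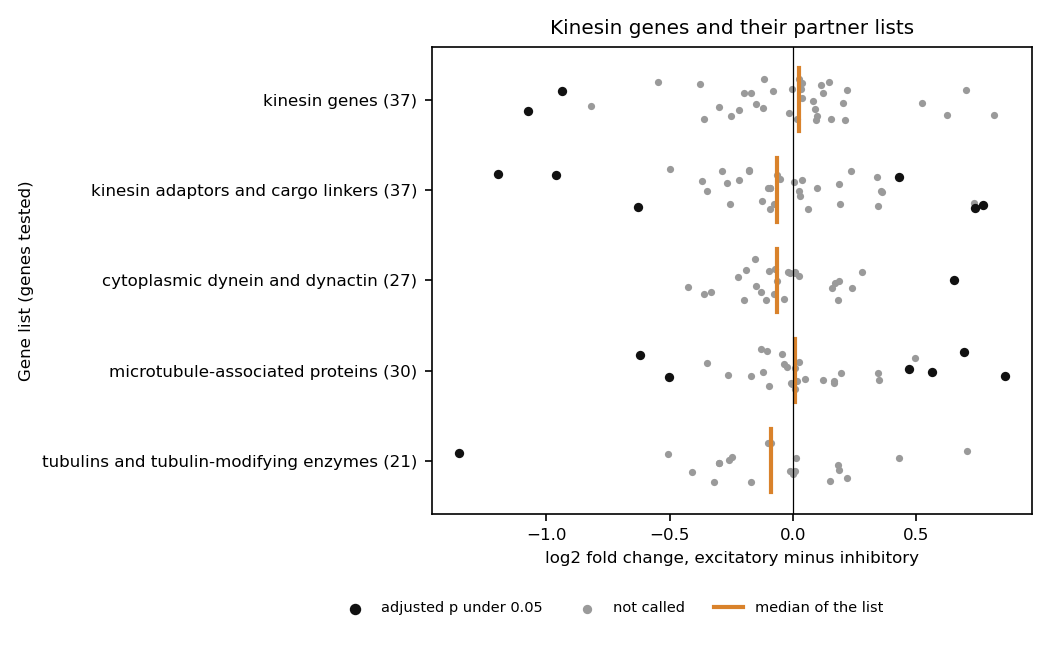
Log2 fold change, excitatory minus inhibitory, of each tested gene on the kinesin list and 4 partner lists, with called genes in black and the median of each list as an orange bar. The medians lie between -0.088 and 0.027, and the called adaptors lie on both sides of 0.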

How the data were processed

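RNA of sorted nuclei was measured in 4 libraries, 2 of excitatory and 2 of inhibitory neurons. The authors deposited 1 table of TPM values with a column per library. StringTie 2.2.1, HISAT2 2.2.1, fastp 0.23.4 and Bowtie2 2.3.5 were used with build mm10, per the submitters' processing notes. The sources used here do not give the order of these tools, the gene annotation, or whether counting was by strand. Libraries were grouped by their labels. Genes at 1 TPM or more in 2 or more libraries were tested with limma 3.58.1 (R 4.3.3) on log2(TPM + 1) with a trend in the variance prior, two-sided, and p-values were adjusted by Benjamini-Hochberg over all 26055 genes. Fold changes on this scale understate those of low genes. Intervals use 2 residual and 4.04 prior degrees of freedom. The code was tested on simulated data. Spans and overlaps came from GENCODE annotation on mm10, in which all 46 kinesin genes were found, and promoters from RefSeq. Alternatives changed the pseudocount, filter, trend, scaling, replicate block and libraries used. Values in each library were to be given for called members and for members of the transport, kinesin-4 and depolymerase families with a mean of at least 5 TPM, and for the called partner genes with the smallest p. The members and lists were chosen with earlier results of these data known.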

Additional observations from a re-analysis of the deposited data

How the results depend on the processing

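Against 0 kinesin genes higher in excitatory nuclei, median-of-ratios scaling gave 1 (Kif21b). Against 2 higher in inhibitory nuclei, dropping the filter gave 1 and dropping the trend gave 1, Kif26b in each case. Leaving out each library in turn gave 0 to 0. With the filter reapplied, an alternative chosen after seeing the data, it gave 1 to 2 kinesin genes, with 1 without excitatory replicate 1 and 1 without inhibitory replicate 2. Over all genes, 1414 were higher in excitatory and 1725 in inhibitory nuclei. Without the filter these were 666 and 740, leaving out a library 0 and 0, and with the filter reapplied 604 to 1039 (813 without excitatory replicate 1 and 893 without inhibitory replicate 1) and 800 to 1085 (1064 and 871). With the replicate number as a block, 2 kinesin genes were higher in excitatory nuclei (Kif21b, adjusted p = 0.0183, and Kif1c, 0.0392), and 1946 and 2382 of all genes were called. Deviations of same-numbered libraries correlated at 0.0957 over all genes tested and at 0.303 over the kinesin genes. There are 2 such pairs, and the labels tie no number to a shared animal or day, so the numbers were not taken as pairs. Directions turned only for uncalled genes. They did so with median-of-ratios scaling for Kif5c (0.061) and Kif20a (0.059), with a pseudocount of 0.1 for Kif15 (-0.030), and with quantile normalization for Kif20a (0.11) and Kif6 (0.039). Leaving out a library moved the log2 fold change of Kif11 from -0.086 to 0.28, Kif13b from -0.079 to 0.39, Kif15 from -1.08 to 1.12, Kif16b from -0.24 to 0.011, Kif17 from -0.27 to 0.34 and Kif18a from -0.17 to 0.58. The ranges were -0.29 to 0.28 for Kif20a, -0.048 to 0.12 for Kif21a, -0.050 to 0.47 for Kif22, -0.022 to 0.076 for Kif2a, -0.077 to 0.049 for Kif5c and -0.26 to 0.10 for Kif6. They were -0.21 to 0.29 for Kif9, -0.37 to 0.067 for Kifc2, -0.42 to 0.59 for Kifc5b and -0.10 to 0.26 for Klc2. The cause of these changes was not tested, and depth is unknown.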
